A study of Mus musculus with 9 samples.

Results

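The 10 genes described here encode enzymes of triglyceride synthesis and were taken by name from the 32285 gene identifiers counted in each of 9 RNAseq libraries: the glycerol 3-phosphate acyltransferases Gpam, Gpat3 and Gpat4, the lysophosphatidate acyltransferases Agpat2 and Agpat3, the lipins Lpin1 and Lpin2, the diacylglycerol acyltransferases Dgat1 and Dgat2, and the phosphoenolpyruvate carboxykinase Pck1. All libraries came from cultured stromal vascular fraction (SVF) cells, the mixed non-adipocyte cells of fat that include preadipocytes, grown from subcutaneous white fat of wild-type mice aged 4 to 6 days. Undifferentiated cells gave 3 libraries, cells differentiated for 6 days with the vehicle (DMSO) gave 3, and cells differentiated for 6 days with mizoribine (MIZ) gave 3. MIZ inhibits inosine monophosphate dehydrogenase, an enzyme of purine nucleotide synthesis, and was used at 25 µM. Vehicle and MIZ cells shared every other agent: an induction medium with insulin, dexamethasone and IBMX for 2 days, then insulin, T3 and the PPARγ agonists troglitazone and rosiglitazone. The cultures held every SVF cell type that attached, and the study plated the cells of individual animals separately, with 3 biological replicates per group.

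Triglycerides are made in the endoplasmic reticulum by the glycerol 3-phosphate pathway. A GPAT joins a fatty acid to glycerol 3-phosphate, an AGPAT adds another to give phosphatidate, a lipin removes the phosphate to give diacylglycerol, and a DGAT adds the last fatty acid. Fat cells are known to reuse little free glycerol, and PEPCK, the product of Pck1, takes part in glyceroneogenesis, which makes glycerol 3-phosphate from pyruvate and related precursors. Each step can be run by several isoenzymes encoded by separate genes, and counts per gene follow these isoenzymes but cannot tell apart the splice forms of 1 gene, such as those of Lpin1.

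Libraries held 28760721 to 55288455 counts, and 17173 genes were tested. Vehicle library 1 was the shallowest and the least like its replicates, and the fold changes and ratios of the 10 genes were also computed without it. The labels call all 9 samples primary adipocytes, but undifferentiated cells were nearly without some adipocyte markers. Cidec had 0 counts and Adipoq 1 count over the 3 libraries, whereas Lpl was well expressed. The summed level of 10 adipocyte markers was 649.7 to 739.5 CPM (counts scaled to a common library size) in undifferentiated cells, almost all of it Lpl, 19459.8 to 21149 in vehicle and 2179.8 to 2510.4 in MIZ cells. Markers of other cells also moved with the groups. The sum of 5 smooth muscle markers was 724 to 863 CPM in undifferentiated, 79.9 to 113 in vehicle and 6750.0 to 8888 in MIZ cells, the sum of 10 preadipocyte markers 20664 to 22997, 6092 to 6962 and 7569 to 9657, and that of 6 macrophage markers 4862 to 4979, 473 to 855 and 894 to 1237. The macrophage sum does not stand for each marker: between MIZ and vehicle, edgeR called Lyz2 and Adgre1 higher and Mrc1 lower and did not call the other 3, and the median over the 6 was -0.24 on the log2 scale. The preadipocyte sum does not stand for each of its markers either. Between MIZ and vehicle, edgeR called 5 of the 10 higher (35.9% of all genes), 2 lower (35.1%) and did not call 3. Between MIZ and undifferentiated cells it called 2 higher (33.7%), 7 lower (33.3%) and did not call 1. The part of these cell types in the results was not tested. Hepatocyte, kidney tubule, endothelial, lymphocyte, mesothelial and epithelial markers summed to under 30 CPM in every library, with the hepatocyte markers Ttr, Serpina1a and Tat and the kidney marker Umod at 0 counts throughout. The 4 hepatocyte markers tested were all called higher with vehicle than in undifferentiated cells (36.2% of all genes). The hepatocyte sum reached at most 7.61 CPM, with vehicle. The sum of 6 skeletal muscle markers reached 62.4 CPM and that of 4 Schwann cell markers 59.6 CPM, both in MIZ cells. The skeletal muscle sum, too, does not stand for each marker, and only 3 of the 6 were tested. Between MIZ and vehicle, edgeR called Acta1 higher and Mb lower and did not call Mylpf. The median over the 3 was -0.33 on the log2 scale.

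The triglyceride synthesis genes were higher as a group in vehicle than in undifferentiated cells, and most of them were lower with MIZ than with vehicle. Their summed level was 345 to 357 CPM in undifferentiated, 3663 to 3791 in vehicle and 501 to 587 in MIZ cells. Between MIZ and vehicle, edgeR's quasi-likelihood test (Benjamini-Hochberg adjusted p under 0.05) called 9 of the 10 genes lower, where 35.1% of all genes tested were called lower, and 1 higher, Lpin2, where 35.9% were called higher. The fall was over 2-fold for 8 genes, all but Gpat4, against 16.8% of all genes, and the median log2 fold change was -2.64 over the 10 genes and 0.02 over all genes. Between vehicle and undifferentiated cells the same 9 genes were called higher, where 36.2% of all genes were, and Lpin2 was called lower, where 41.5% were. The rise was over 2-fold for 8 of them, against 17.2% of all genes, with a median log2 fold change of 4.08 over the 10 genes and -0.08 over all genes. The libraries of MIZ and vehicle did not overlap for any of the 10 genes (72.8% of all genes), nor did those of vehicle and undifferentiated cells (80.7%). These comparisons share the vehicle libraries. In bulk RNA, fewer adipocytes in a culture and less of an RNA per adipocyte cannot be told apart. As a scale for that, the levels of 9 adipocyte markers in MIZ cells were 3.04% (Car3) to 63.5% (Cfd) of those in vehicle cells, with 9.20% for Adipoq and 13.7% for Plin1, and those of the 10 genes were 0.589% (Pck1) to 122% (Lpin2).

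**Figure D1:**
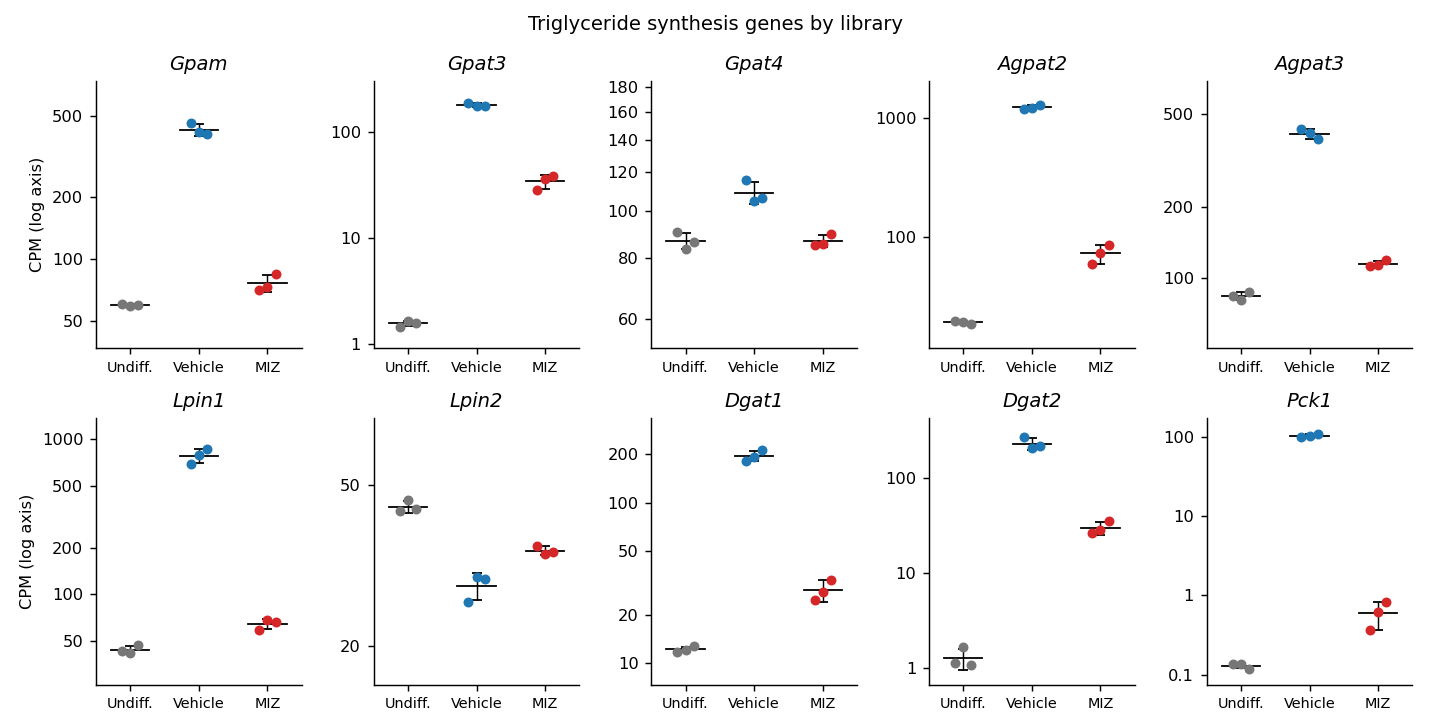
Levels of the 10 triglyceride synthesis genes in CPM on log axes, with 1 point per library, a line at the mean and bars of 1 SD (n = 3 libraries per group). The 3 vehicle libraries lie above all MIZ libraries for every gene but Lpin2, where they lie below.

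The first step of the pathway is encoded by Gpam, Gpat3 and Gpat4, and the 3 genes behaved differently. Gpam, on chromosome 19 (55067268 to 55127238 in GRCm38), encodes the mitochondrial GPAT1. Its level was 60.3, 58.7 and 59.6 CPM in the undifferentiated libraries, 462, 414 and 408 CPM with vehicle and 70.6, 73.2 and 84.0 CPM with MIZ. All MIZ libraries were far below all vehicle libraries and slightly above all undifferentiated ones. The log2 fold change of Gpam between MIZ and vehicle was -2.50 (standard error 0.0724), with an adjusted p of 2.00e-10 by edgeR with Benjamini-Hochberg adjustment, and that between vehicle and undifferentiated cells was 2.85. Gpat3, on chromosome 5 (100845713 to 100899102), encodes the GPAT3 of the endoplasmic reticulum. It had 1.45, 1.64 and 1.57 CPM in undifferentiated cells, 192, 177 and 179 CPM with vehicle and 28.3, 36.0 and 38.7 CPM with MIZ. It was thus nearly off before differentiation, and the MIZ libraries lay between the other groups without overlap. Its log2 fold change was 6.87 between vehicle and undifferentiated cells and -2.41 (standard error 0.0966, edgeR with Benjamini-Hochberg adjusted p = 2.21e-09) between MIZ and vehicle. Gpat3 shares 1052 exon bases with 4930458D05Rik on the opposite strand, a gene with 26, 18 and 28 counts in the undifferentiated libraries, where Gpat3 had 64, 73 and 92, and with 374 where Gpat3 had 8246 in vehicle library 2. The strand setting is not known, so reads of the shared bases could have been counted for either gene or left out. The low undifferentiated level of Gpat3, and with it the fold against vehicle, could therefore be too high or too low.

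Gpat4, on chromosome 8 (23171265 to 23208346), encodes the other GPAT of the endoplasmic reticulum and changed least of the 9 genes that fell. It had 90.3, 83.5 and 86.3 CPM in undifferentiated cells, 116, 105 and 106 CPM with vehicle and 84.9, 85.6 and 89.7 CPM with MIZ. The vehicle libraries were the highest, and the undifferentiated and MIZ libraries overlapped. The log2 fold change was -0.33 (standard error 0.0513) between MIZ and vehicle, with an adjusted p of 1.62e-04 by edgeR with Benjamini-Hochberg adjustment. The size of this change depended on the scaling: with library totals alone it was -0.19, and the change between vehicle and undifferentiated cells was 0.15 in place of 0.33. Between MIZ and undifferentiated cells it was 0.00, with a 95% interval of -0.10 to 0.10. Per kilobase of exon length, the GPAT genes summed to 22.4 ± 0.60 CPM per kb in undifferentiated, 133 ± 7.47 with vehicle and 34.2 ± 2.84 with MIZ (SD, n = 3). Gpat4 made up 58.0% of that sum in undifferentiated, 12.3% in vehicle and 38.1% in MIZ cells. The share of Gpat3 was 1.99%, 39.3% and 28.6%, and that of Gpam 39.9%, 48.4% and 33.3%. The order of the levels per length was therefore Gpat4, Gpam, Gpat3 in undifferentiated and in MIZ cells, and Gpam, Gpat3, Gpat4 with vehicle. In MIZ cells this order held within each library, although the ranges of Gpam and Gpat3 over the libraries overlapped. The MIZ levels were close, at 13.0 CPM per kb for Gpat4, 11.4 for Gpam and 9.80 for Gpat3. Their order and the shares depend on the lengths used, which join the exons of all annotated transcripts. The same lengths divide every library, so the libraries do not check them.

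The next enzyme, AGPAT, was represented by the gene with the highest vehicle level of the 10 per kilobase of exon length. Agpat2, on chromosome 2 (26593057 to 26604417), encodes the main AGPAT of fat cells, whose loss causes congenital generalized lipodystrophy. It had 19.5, 19.2 and 18.6 CPM in undifferentiated cells, 1203, 1230.3 and 1285 CPM with vehicle and 59.6, 73.1 and 85.5 CPM with MIZ. The groups did not overlap, and MIZ cells held 5.87% of the vehicle level. Its log2 fold change was -4.09 (standard error 0.114) between MIZ and vehicle, the 229th lowest of 17173 genes, with an adjusted p of 1.58e-10 by edgeR with Benjamini-Hochberg adjustment. Between vehicle and undifferentiated cells it was 6.02. Agpat3, on chromosome 10 (78269178 to 78352489), encodes another AGPAT. It had 83.7, 80.2 and 86.7 CPM in undifferentiated cells, 431, 413 and 389 CPM with vehicle and 112, 113 and 119 CPM with MIZ. It followed the same order of groups as Agpat2 over a narrower range, with log2 fold changes of 2.30 between vehicle and undifferentiated cells and -1.84 (standard error 0.0529, edgeR with Benjamini-Hochberg adjusted p = 1.89e-10) between MIZ and vehicle. Agpat2 and Agpat3 share 64 and 16 exon bases with genes on the opposite strand. Among 6 genes of the family, Agpat2 made up 15.4% of the summed CPM per kb in undifferentiated, 84.6% in vehicle and 31.3% in MIZ cells, and Agpat3 18.5%, 7.68% and 13.6%. Agpat1, which was not called between MIZ and vehicle, made up 35.9%, 5.36% and 31.7%.

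The lipins moved in opposite directions. Lpin1, on chromosome 12 (16535669 to 16610966), encodes lipin 1, the main phosphatidate phosphatase of fat cells. It had 43.2, 42.0 and 47.0 CPM in undifferentiated cells, 693, 794 and 858 CPM with vehicle and 58.9, 68.0 and 66.9 CPM with MIZ. All vehicle libraries were more than 10 times as high as the highest undifferentiated library, and the MIZ libraries lay just above the undifferentiated ones. The log2 fold change was -3.60 (standard error 0.0919, edgeR with Benjamini-Hochberg adjusted p = 9.19e-11) between MIZ and vehicle and 4.15 between vehicle and undifferentiated cells. Lpin2, on chromosome 17 (71182560 to 71249817), encodes lipin 2, which is known best in liver and macrophages. It had 43.1, 45.9 and 43.5 CPM in undifferentiated cells, 25.6, 29.5 and 29.2 CPM with vehicle and 35.3, 33.8 and 34.1 CPM with MIZ. It was the 1 gene of the 10 that was lowest with vehicle, with no overlap between any of the groups. Its log2 fold change was -0.65 (standard error 0.0607) between vehicle and undifferentiated cells and 0.29 (standard error 0.0613, edgeR with Benjamini-Hochberg adjusted p = 0.0015) between MIZ and vehicle. With Lpin3 counted in, Lpin1 made up 49.4% of the summed CPM per kb of the lipins in undifferentiated, 94.5% in vehicle and 45.1% in MIZ cells, and Lpin2 39.2%, 2.69% and 19.0%. Lpin3 accounted for 35.8% with MIZ, against 11.4% in undifferentiated and 2.86% in vehicle cells.

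The last step is run by DGAT1 and DGAT2, enzymes that do the same reaction but belong to unrelated protein families. Dgat1, on chromosome 15 (76502015 to 76511953), had 11.7, 12.0 and 12.7 CPM in undifferentiated cells, 183, 193 and 211 CPM with vehicle and 24.5, 27.8 and 33.1 CPM with MIZ. The groups did not overlap, and the log2 fold change between MIZ and vehicle was -2.79 (standard error 0.0989, edgeR with Benjamini-Hochberg adjusted p = 8.65e-10). Dgat2, on chromosome 7 (99153658 to 99182719), had 1.14, 1.66 and 1.08 CPM in undifferentiated cells, 268, 206 and 216 CPM with vehicle and 26.3, 28.3 and 34.9 CPM with MIZ. Like Gpat3 it was close to off before differentiation, and like Dgat1 it did not overlap between groups. Its log2 fold change was 7.49 between vehicle and undifferentiated cells, the 148th highest of all genes, where that of Dgat1 was 4.01. Between MIZ and vehicle it was -2.95 (standard error 0.136, edgeR with Benjamini-Hochberg adjusted p = 6.80e-09). Dgat2 made up 9.53% of the summed CPM per kb of both genes in undifferentiated, 53.7% in vehicle and 50.9% in MIZ cells.

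Pck1 changed most of the 10 genes in both directions. The gene lies on chromosome 2 (173153048 to 173159273) and encodes the cytosolic PEPCK, an enzyme of gluconeogenesis in liver and kidney and of glyceroneogenesis in fat. It had 6, 6 and 7 counts in the undifferentiated libraries, 2617, 4729 and 4882 with vehicle and 16, 23 and 28 with MIZ. In CPM these were 0.136, 0.135 and 0.119, then 98.1, 101 and 109, then 0.362, 0.624 and 0.828. The gene was close to off in both the undifferentiated and the MIZ libraries, which did not overlap. The log2 fold change was 9.60 (standard error 0.165) between vehicle and undifferentiated cells, the 57th highest of all genes. Between MIZ and vehicle it was -7.45 (standard error 0.139, edgeR with Benjamini-Hochberg adjusted p = 2.43e-11), the 20th lowest of 17173 genes. The other PEPCK gene, Pck2, encodes the mitochondrial enzyme and had a log2 fold change of -0.32 between MIZ and vehicle.

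**Figure D2:**
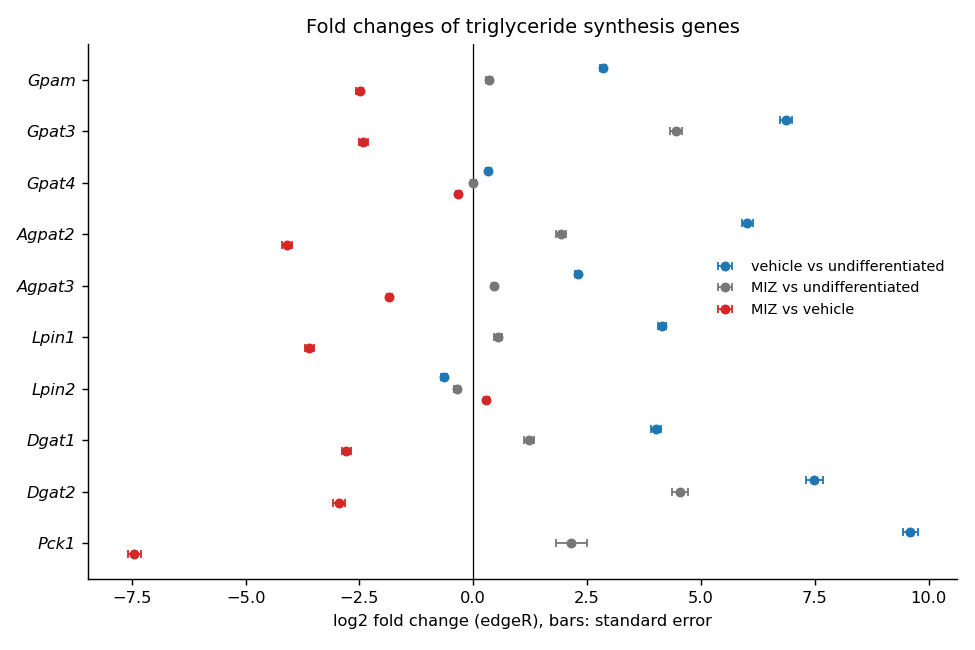
Log2 fold changes of the 10 genes from edgeR in the 3 comparisons, with bars of 1 standard error. Red points (MIZ against vehicle) reach from -7.45 for Pck1 to 0.29 for Lpin2, and blue points (vehicle against undifferentiated) from -0.65 for Lpin2 to 9.60 for Pck1.

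To show what lies upstream of genes that moved together, the 250 bases before the RefSeq transcription start (GRCm38.p6) are given for the 4 genes with the largest falls among the 7 of the 10 that have an entry. Sequences run 5′ to 3′ on the gene's own strand, and capitals mark matches on either strand to any of 7 motifs. These are the cAMP response element TGACGTCA, its variant TTACGTCA and the sterol response element TCACNCCAC. The short ones are CCAAT, to which NF-Y binds, then TATAAA, the core promoter element, then CACGTG, the E-box of many helix-loop-helix factors, and finally GGGCGG, the GC box of the Sp family. Gpam has 2 entries, of which the upstream one is given. Gpat4, Dgat1 and Dgat2 have none.
Pck1, chr2:173152823-173153072, plus strand: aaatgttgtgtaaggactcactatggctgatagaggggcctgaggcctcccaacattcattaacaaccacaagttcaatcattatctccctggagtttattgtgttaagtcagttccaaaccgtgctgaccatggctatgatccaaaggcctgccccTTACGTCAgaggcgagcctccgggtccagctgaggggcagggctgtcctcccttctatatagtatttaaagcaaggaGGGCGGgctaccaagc
Agpat2, chr2:26604418-26604667, minus strand: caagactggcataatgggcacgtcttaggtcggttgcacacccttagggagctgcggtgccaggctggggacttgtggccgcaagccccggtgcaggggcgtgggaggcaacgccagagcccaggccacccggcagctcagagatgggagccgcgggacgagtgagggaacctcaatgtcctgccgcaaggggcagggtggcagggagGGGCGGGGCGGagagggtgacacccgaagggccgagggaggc
Lpin1, chr12:16610967-16611216, minus strand: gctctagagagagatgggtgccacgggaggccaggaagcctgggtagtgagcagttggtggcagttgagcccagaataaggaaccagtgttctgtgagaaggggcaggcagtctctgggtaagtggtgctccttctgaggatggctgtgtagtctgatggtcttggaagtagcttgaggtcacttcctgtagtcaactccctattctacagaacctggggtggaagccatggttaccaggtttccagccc
Gpam, chr19:55127239-55127488, minus strand: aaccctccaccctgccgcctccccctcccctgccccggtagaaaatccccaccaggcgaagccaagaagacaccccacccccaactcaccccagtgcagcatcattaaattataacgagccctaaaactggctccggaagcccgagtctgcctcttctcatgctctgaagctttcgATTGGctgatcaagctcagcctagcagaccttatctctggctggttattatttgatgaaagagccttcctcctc
The Pck1 window held TTACGTCA at 93 to 86 bases before the start, letters that 0.447% of all 32851 RefSeq promoter windows of this length hold, and a GC box at 16 to 11 bases. The Agpat2 window held 2 GC boxes that overlap by 1 base, at 42 to 32 bases, a motif found in 32.7% of windows. The Gpam window held a CCAAT box on the reverse strand at 74 to 70 bases, a motif found in 33.8% of windows, and the Lpin1 window held none of these motifs. The other motifs were in none of these 4 windows. Of all windows, 1.55% held the cAMP response element, 12.4% the core promoter element, 6.02% the E-box and 1.05% the sterol response element.

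The balance between isoenzymes was compared as the log2 ratio of their counts within a library, a quantity that does not depend on library size. Over the 3 groups, exact permutation tests gave a p of 0.00357, the smallest the design can give, for 4 of 6 ratios (adjusted over the 6 by Benjamini-Hochberg 0.00536) and of 0.0179 for the others, Gpam/Gpat3 and Dgat2/Dgat1. For any pair of groups, 3 against 3 libraries cannot give an exact p below 0.1. The log2 ratio of Lpin1 to Lpin2 was 0.00, -0.13 and 0.11 in undifferentiated cells, 4.76, 4.75 and 4.88 with vehicle and 0.74, 1.01 and 0.97 with MIZ. No groups overlapped, and this ratio had the largest difference between MIZ and vehicle of the 6, at -3.89 (two-sided exact p = 0.1). The log2 ratio of Agpat2 to Agpat3 was -2.10, -2.06 and -2.22 in undifferentiated cells, 1.48, 1.58 and 1.73 with vehicle and -0.91, -0.63 and -0.47 with MIZ. It crossed 0 with vehicle alone, so Agpat2 had more counts than Agpat3 in the vehicle libraries and fewer in all others, although per length Agpat2 was also the higher one with MIZ. The log2 ratio of Gpam to Gpat4 averaged -0.54 in undifferentiated, 1.97 in vehicle and -0.20 in MIZ cells, and that of Gpat3 to Gpat4 -5.80, 0.75 and -1.35, both without overlap between groups.

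For the other 2 ratios, the undifferentiated libraries lay apart from all others, and the vehicle and MIZ libraries overlapped. Each pair with undifferentiated cells gave a two-sided exact permutation p of 0.1, the smallest that 3 against 3 libraries allow. The log2 ratio of Gpam to Gpat3 was 5.37, 5.16 and 5.25 in undifferentiated cells, 1.27, 1.23 and 1.19 with vehicle and 1.32, 1.02 and 1.12 with MIZ. The vehicle and MIZ libraries overlapped, with a difference of -0.07 (two-sided exact permutation p = 0.5). The log2 ratio of Dgat2 to Dgat1 was -3.36, -2.86 and -3.56 in undifferentiated cells, 0.55, 0.09 and 0.03 with vehicle and 0.10, 0.03 and 0.08 with MIZ. Vehicle library 1 stood above the other 5 differentiated libraries, which lay between 0.03 and 0.10. The difference between MIZ and vehicle was -0.16 (two-sided exact permutation p = 0.5), and 0.0042 without that library. All 4 of these genes fell between vehicle and MIZ, and the mean log2 ratios were 1.23 and 1.15 for Gpam to Gpat3 and 0.23 and 0.07 for Dgat2 to Dgat1.

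**Figure D3:**
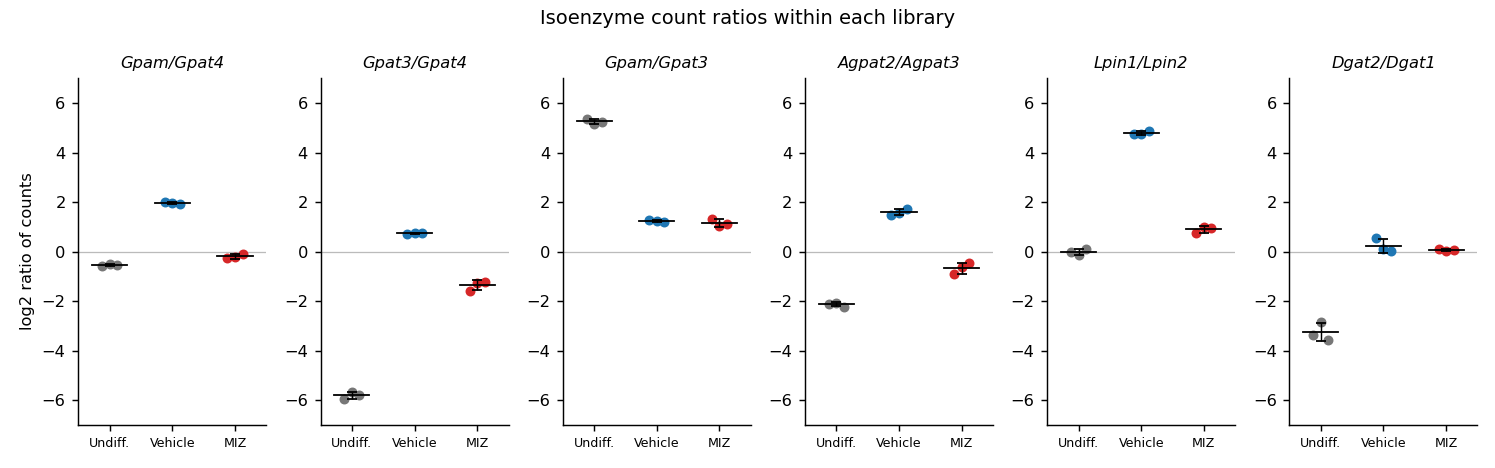
Log2 ratios of counts for 6 pairs of isoenzymes, with 1 point per library, a line at the mean and bars of 1 SD (n = 3 per group). The ratio of Lpin1 to Lpin2 falls by 3.89 from vehicle to MIZ, while Gpam/Gpat3 and Dgat2/Dgat1 overlap between these groups.

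**Figure D4:**
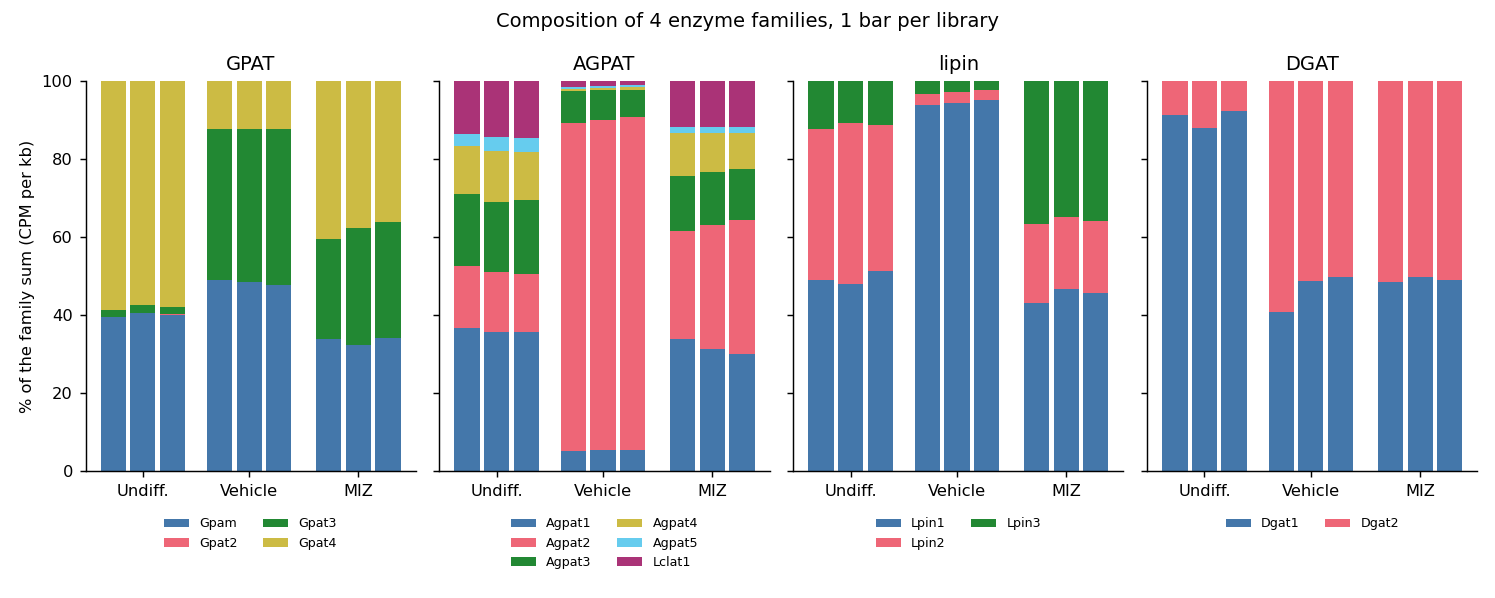
Share of each gene in the summed CPM per kb of its family, in percent, with 1 bar for each of the 9 libraries. Agpat2 makes up 84.6% of its family and Lpin1 94.5% of the lipins with vehicle, against 31.3% and 45.1% with MIZ.

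MIZ cells were not at the undifferentiated level for most of the genes. Between MIZ and undifferentiated cells, edgeR with Benjamini-Hochberg adjustment called 8 of the 10 genes higher, where 33.7% of all genes tested were called higher, 1 lower, Lpin2, where 33.3% were called lower, and did not call Gpat4 (adjusted p = 0.991). The libraries did not overlap for 9 of the 10 genes, all but Gpat4, as for 74.4% of all genes. The median log2 fold change was 0.89 over the 10 genes and -0.00 over all genes, and 5 genes were over 2-fold higher, against 9.88% of all genes. Those were Dgat2, higher by 4.54 on the log2 scale (standard error 0.184), Gpat3 by 4.46 (0.129), Pck1 by 2.16 (0.334), Agpat2 by 1.93 (0.109) and Dgat1 by 1.22 (0.102). The difference of Pck1 rests on 19 counts over the undifferentiated and 67 over the MIZ libraries. Lpin1, Agpat3 and Gpam were higher by 0.55, 0.46 and 0.35 on the log2 scale, and Lpin2 fell by 0.36. Gpat3 and Dgat2, which were under 2 CPM before differentiation, reached 34.3 ± 5.38 and 29.8 ± 4.53 CPM in MIZ cells (SD, n = 3), 18.8% and 13.0% of their vehicle levels. Pck1, the lowest of the 10 before differentiation at 0.130 CPM, reached 0.589% of its vehicle level.

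Other enzymes of the same steps changed in both directions. Of 10 further GPAT, AGPAT, lipin, monoacylglycerol acyltransferase and lipid phosphate phosphatase genes tested, edgeR called 5 higher and 2 lower between MIZ and vehicle, with a median log2 fold change of 0.27. These counts stand beside 35.9% of all genes called higher and 35.1% called lower. Plpp1, a lipid phosphate phosphatase of the cell surface, rose by 1.99, Agpat4 by 1.46, Lpin3 by 1.13 and Lclat1, an acyltransferase that acts on cardiolipin, by 0.51. Agpat5 fell by 0.93. Mogat1 had 59 counts over the vehicle and 0 over the MIZ libraries, and is named after its values were seen because it was the other gene called lower. At a floor of 3 counts over the MIZ libraries it was at least 19.4-fold lower. Its paralog Mogat2, also named after its values were seen and also far under 5 CPM, was called higher, with 2 counts over the vehicle and 31 over the MIZ libraries.

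Genes of glycerol 3-phosphate metabolism and glyceroneogenesis were mostly lower with MIZ, as Pck1 was. The list is not limited to genes that make glycerol 3-phosphate. Of 10 genes of glycerol 3-phosphate and glyceroneogenesis, 9 were called lower (35.1% of all genes), 0 higher (35.9%) and 1 was not called between MIZ and vehicle, with a median log2 fold change of -2.00. Gpd1, which reduces dihydroxyacetone phosphate to glycerol 3-phosphate, changed by -3.27 (standard error 0.175), from 2317 CPM with vehicle to 240.3 with MIZ. Aqp7, the glycerol channel of fat cells, changed by -3.01, pyruvate carboxylase (Pcx), which makes oxaloacetate for PEPCK, by -2.80, and cytosolic malate dehydrogenase (Mdh1) by -2.74. Among 6 partners of lipins and of lipid droplets, 4 were called lower (35.1%) and 1 higher (35.9%), with a median of -1.04. Abhd5, the coactivator of the lipase ATGL, changed by -2.33, Fitm2, which takes part in droplet formation, by -2.22, and Bscl2, which encodes seipin, by -1.70. Ctdnep1, the phosphatase that activates lipins, changed by -0.38, and Tmem159, whose product binds seipin, by 0.40.

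Phosphatidate and diacylglycerol also feed phospholipid synthesis. Of 17 genes, 11 were called lower (35.1% of all genes), 5 higher (35.9%) and 1 was not called between MIZ and vehicle, with a median log2 fold change of -0.75. Pcyt2 and Chpt1, enzymes of phosphatidylethanolamine and phosphatidylcholine synthesis, changed by -2.49 and -2.30, choline kinase beta (Chkb) by -1.71 and cardiolipin synthase (Crls1) by -1.50. Pgs1 and Cds2, which act on the route from phosphatidate to phosphatidylglycerol, rose by 0.60 and 0.46, whereas Cds1 and Ptpmt1, of the same route, changed by -1.39 and -1.32. Diacylglycerol kinases turn diacylglycerol back into phosphatidate, and of 8 tested 3 were called higher, 2 lower and 3 were not called, with a median of 0.46 (35.9% of all genes higher, 35.1% lower). Their summed level went the other way, from 334 to 369 CPM with vehicle to 224 to 239 CPM with MIZ. Dgkz rose by 0.84, Dgka by 0.83 and Dgkh by 0.65, while Dgkd changed by -1.91 and Dgke by -0.46.

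Transcription factors known to act on lipid synthesis genes were mostly lower with MIZ, with 7 of 8 called lower (35.1% of all genes), 1 higher (35.9%) and a median log2 fold change of -2.33. Mlxipl, which encodes the carbohydrate response factor ChREBP, changed by -3.81, from 75.9 to 5.44 CPM. Pparg, the master regulator of fat cells, changed by -3.01 and Cebpa by -2.84. Srebf1, the factor of fatty acid synthesis, changed by -2.39, whereas Srebf2, the factor of cholesterol synthesis, rose by 0.42. Many of the genes named from these lists overlap an exon of a gene on the opposite strand. They are Plpp1, Agpat1, Agpat5, Mogat1, Mogat2, Gpd1, Pck2, Mdh1, Abhd5, Fitm2, Bscl2 and Ctdnep1. Also among them are Chpt1, Chkb, Crls1, Pgs1, Ptpmt1, Dgkz, Dgka, Dgkd, Dgke, Mlxipl, Cebpa and Srebf1. Ptpmt1 shares 1657 of its 3684 exon bases in this way. The strand setting of the counting is not given in the sources used here.

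**Figure D5:**
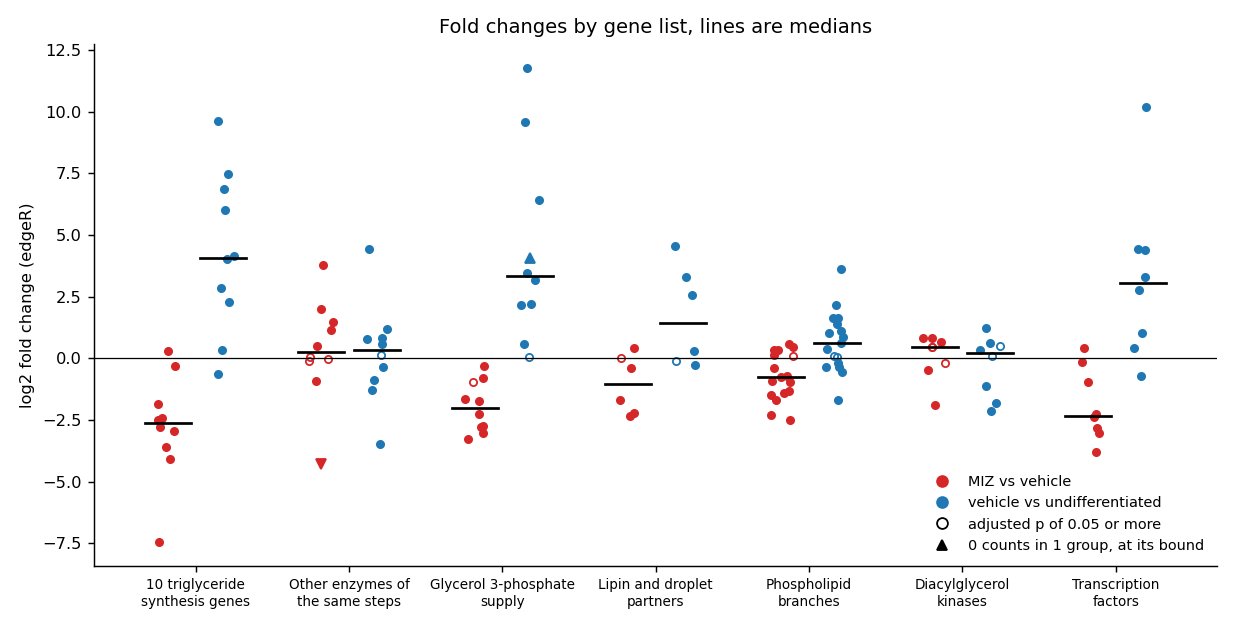
Log2 fold changes from edgeR of the 10 genes and of 6 other lists, for MIZ against vehicle (red) and vehicle against undifferentiated (blue), with 1 point per gene, open where not called, triangles at the bound for genes with 0 counts in a group, and lines at the medians. The red medians run from -2.64 for the 10 genes and -2.33 for the transcription factors to 0.27 for other enzymes of the same steps and 0.46 for the diacylglycerol kinases.

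The genes most like each of the 10 over the 9 libraries are given as a description, by Pearson's r of log2 CPM among 11759 genes that reached an average of 5 CPM in some group. The libraries fall into 3 groups, so r is near 1 for many genes: 474 genes had an r above 0.99 with Agpat2 and 502 with Pck1, but 13 with Lpin2 and 1 with Gpat4. Agpat2 was most like G0s2, an inhibitor of the lipase ATGL (r = 0.9998), and Hsd17b12, a gene of fatty acid elongation (0.9997). Gpat3 was most like Aqp7 (0.9995) and the droplet coat gene Plin4 (0.9994). Lpin1 was most like Aifm2 (0.9997) and the mitochondrial pyruvate carrier gene Mpc1 (0.9993), Gpam like Gstz1 and Etfa (both 0.9996), and Agpat3 like Acadl, an acyl-CoA dehydrogenase, and Slc1a5, an amino acid transporter (both 0.9997). Dgat1 was most like Miga2 (0.9996) and Pex16 (0.9993), and Dgat2 like Gatad1 (0.9993) and Gars (0.9982). Gatad1 changed far less than Dgat2, with 57.2 CPM in undifferentiated, 100 in vehicle and 79.7 in MIZ cells. Gars did too, with 135, 398 and 264 CPM. Pck1 was most like Aco1 (0.9995) and Mrpl12 (0.9994), whose folds were far smaller, with 413 CPM for Aco1 in vehicle and 95.8 in MIZ cells. Lpin2 was most like Nsmce1 (0.9942) and Ckap5 (0.9940), and Gpat4 like Lipg (0.9919) and Med8 (0.9881). A high r does not mean folds of like size. Lipg changed far more than Gpat4, with 0.735 CPM in undifferentiated, 5.20 in vehicle and 0.821 in MIZ cells. Hsd17b12 changed less than Agpat2, with 63.3, 611 and 134 CPM.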

How the data were processed

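RNAseq of 9 libraries from primary SVF cells was analysed. By the study's methods, the authors depleted ribosomal RNA (a poly-A step is also named), sequenced paired reads of 150 bases, trimmed them with Trim Galore 0.6.7 and aligned them with STAR to mm10 (GRCm38). The deposited values are raw counts per gene, 1 library per table. The methods name STAR's gene counts and the labels HTSeq, and the annotation release and strand setting are not given in the sources used here. Symbols were matched for 32158 of 32285 identifiers, and 1 symbol on the lists was updated (Gk).

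The members and the gene lists were chosen with earlier results of these data known. A gene entered the test with 5 or more counts in 3 or more libraries, which left out 15112, and 1 fit was made of all 9 libraries with edgeR 4.0.16 (R 4.3.3, TMM, quasi-likelihood test, Benjamini-Hochberg adjustment over all genes tested, threshold 0.05, biological coefficient of variation 0.0806). The fit was tested on simulated data. The authors used DESeq2, which was run here as an alternative (1.42.0). Replicate values are mean ± SD over 3 libraries. Levels are CPM on TMM library sizes, divided by exon length (GENCODE M21, GRCm38) where genes are compared. Exon length is that of the joined exons of all annotated transcripts of a gene, not of the transcripts expressed. Isoenzyme ratios were tested by exact permutation over 1680 assignments of libraries to groups, two-sided for pairs of groups. Members were always named. From each other list, up to 4 genes with the largest called change in the list's prevailing direction, and up to 2 in the opposite one, were named if they reached 5 CPM in a group, and for likeness the 2 closest genes. Agpat1, Pck2, Mogat1, Mogat2, Cds1, Ptpmt1 and the marker genes given singly were named after their values were seen. Alternatives were other scalings and filters, DESeq2, fits of 6 libraries or without mitochondrially encoded genes, a replicate block and 9 fits without 1 library each. Depth was 42217231 to 55288455 counts for undifferentiated cells, 28760721 to 50262228 for vehicle and 33504937 to 43281818 for MIZ. Figures were drawn with matplotlib 3.10.9 (Python 3.11.15).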

Additional observations from a re-analysis of the deposited data

How the results depend on the processing

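Of 612 values recomputed under the alternatives, 609 counted as unchanged. A count of genes did so if it stayed near that of the main fit. A fold change did so if its direction and its side of the threshold stayed, or if it was uncalled in both fits. A ratio did so if its MIZ minus vehicle difference kept its sign and its test over 3 groups kept its side of the threshold. The Gpat4 change between MIZ and undifferentiated cells was never called and ran from -0.04 to 0.03. The counts of the 10 genes called were 10, 10 and 9 under every alternative for MIZ against vehicle, vehicle against undifferentiated and MIZ against undifferentiated cells. The number of all genes called was 11289 to 12396, 12418 to 13534 and 10318 to 11970. Deviations of same-numbered libraries from their group means had correlations from -0.13 to 0.16. These were not set beside other pairings and cannot show whether same-numbered libraries shared animals. A replicate block gave 12020, 13162 and 11281 genes called in place of 12190, 13339 and 11505. With the replicate block, the Gpam/Gpat3 ratio (MIZ minus vehicle -0.074) and the Dgat2/Dgat1 ratio (-0.159) reached an adjusted exact permutation p of 0.0556 over the 3 groups and no longer passed. That design allows no p below 0.0278. Without each library in turn, the Dgat2/Dgat1 difference ran from -0.26 to 0.0042, the latter without vehicle replicate 1, and the Gpam/Gpat3 difference from -0.16 to -0.0095, the latter without MIZ replicate 2. With library totals only, the median log2 fold change of all genes moved to 0.16 for MIZ against vehicle and to -0.25 for vehicle against undifferentiated cells, and those of Gpat4 to -0.19 and 0.15 and of Lpin2 to 0.42 and -0.83, all still called by edgeR. Over all alternatives, Gpat4 ran from -0.37 to -0.19 and Lpin2 from 0.22 to 0.42 between MIZ and vehicle. Undifferentiated levels of Pck1, Dgat2 and Gpat3 rest on 19, 187 and 229 counts over 3 libraries.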
